A study of Mus musculus with 8 samples.

Results

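The nuclear genes that encode subunits of respiratory complex I were compared between the cardiac ventricles of Sox5/Sox6 double knockout mice (DKO) and those of control mice (Ctrl). Members were the rows of the authors' gene table whose symbol begins with Ndufa, Ndufb, Ndufc, Ndufs, Ndufv or Ndufab followed by a number. The rule found 38 of 23100 gene rows, and all 38 were among the 12133 genes that the authors tested. It used gene symbols and no measured value. By symbol it also takes in Ndufa4, a protein since assigned to complex IV, and its paralog Ndufa4l2. Both enter all counts, sums and medians of the 38 members.

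The DKO group held 4 samples from mice with the genotype Sox5fl/fl, Sox6fl/fl, aMHC-Cre positive, and the Ctrl group held 4 samples from mice with the genotype Sox5fl/fl, Sox6fl/fl, aMHC-Cre negative, all aged 4.5 months. Both groups carried the loxP-flanked alleles, and neither was labelled with a drug treatment. The aMHC promoter drives Cre recombinase in cardiomyocytes, so other cells of the ventricle kept Sox5 and Sox6. Ctrl mice lacked Cre, so presence of Cre and deletion of the genes cannot be told apart. Atria were removed before RNA extraction, and the RNA of the whole ventricular tissue was sequenced in bulk. Each level is in FPKM, a count of fragments scaled to transcript length and library size, and the authors' deposited tables give 1 value per gene and genotype, pooled over its 4 samples. The labels number the samples as replicates without saying whether each is a separate animal. The spread between samples is not shown in these tables, and no SD stands beside these levels.

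Complex I, also called NADH:ubiquinone oxidoreductase, takes electrons from NADH in the mitochondrial matrix, passes them along a chain of iron-sulfur clusters to ubiquinone, and pumps protons across the inner membrane. Its matrix arm consists of the N module, where NADH is oxidised, and the Q module, where ubiquinone is reduced. Its membrane arm carries the proton pumps, whose core subunits are encoded by the mitochondrial genome, and many accessory subunits encoded in the nucleus. Cardiomyocytes depend on oxidative phosphorylation and hold large amounts of the complex.

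The targeted gene Sox6 stood at 1.69 FPKM in DKO against 3.39 FPKM in Ctrl (q = 0.00158, authors' deposited table). Sox5 stood at 0.497 FPKM in DKO against 0.369 FPKM in Ctrl and was not tested by the authors, so it does not check the labels. Cardiomyocyte markers summed to 85079 FPKM in DKO and 98074 FPKM in Ctrl, of which the lowest stood at 109 FPKM in DKO and at 116 FPKM in Ctrl. Of the 3 atrial markers, Myl4 stood at 3.58 FPKM in DKO and 3.69 FPKM in Ctrl and was not called, Myl7 at 0.140 FPKM in DKO and 0.192 FPKM in Ctrl, and Sln at 0.0671 FPKM in DKO and 0.367 FPKM in Ctrl. The authors did not test Myl7 and Sln. A gene was called when its q in the authors' deposited table, the p-value adjusted over all tested genes, was at most 0.05. By this rule 371 genes were lower in DKO, or 3.06% of those tested, and 522 were higher, or 4.3%.

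Words of 5 promoter elements were searched in the sequence from 250 bases before to 50 bases after each transcription start, taken from RefSeq on build GRCm38.p6. A promoter was matched for 33 of the 38 members. The letters AAGATGG, a core of the binding site of the factor YY1, are shown here because they lay in 7 of these 33 members, or 21.2%, on either strand. The share was 8.25% of 8691 tested genes and 7.28% of all 27025 genes with a promoter. Each gene counted once, with a match in any of its promoters. In all 7 members the letters were read in the direction of the gene within the first 50 bases after the start. That direction and window held them in 2.93% of the tested genes and 1.54% of all genes with a promoter. Both were taken from where the members' own matches lay, so these shares give no background for the 21.2%. The letters contain ATG, the triplet of a start codon. Each window below runs 5′ to 3′ along the gene's strand, with the searched letters in capitals and up to 10 bases on either side. The windows lie at chr7:3617385-3617411 on the plus strand for Ndufa3, chr6:126849099-126849125 on the minus strand for Ndufa9, chr19:44555393-44555414 on the minus strand for Ndufb8, chr3:51408917-51408943 on the minus strand for Ndufc1, chr13:114388045-114388069 on the minus strand for Ndufs4, chr13:73328433-73328459 on the minus strand for Ndufs6, and chr10:80249463-80249489 on the plus strand for Ndufs7.
Ndufa3: cgccaagaacAAGATGGccgggagtaa
Ndufa9: attgtgggagAAGATGGcggccgccgt
Ndufb8: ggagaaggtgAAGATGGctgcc
Ndufc1: cctgcggaacAAGATGGcgccgtccgt
Ndufs4: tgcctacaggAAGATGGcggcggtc
Ndufs6: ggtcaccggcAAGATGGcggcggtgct
Ndufs7: ggccgaggccAAGATGGcggcgctggc

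Among these 7 members, Ndufs4 and Ndufs7 were called lower in DKO, and the other 5 were not called. Of all 38 members 5 were called lower, against 3.06% of all tested genes. A link between the letters and the calls was not tested. The whole promoters of Ndufs7 and Ndufs8 are given because these were the members with the largest log2 ratios in absolute size. They lie at chr10:80249199-80249498 on the plus strand for Ndufs7 and at chr19:3912725-3913024 on the minus strand for Ndufs8. The capitals in the Ndufs7 promoter mark AAGATGG, and the Ndufs8 promoter held none of the searched letters.
Ndufs7: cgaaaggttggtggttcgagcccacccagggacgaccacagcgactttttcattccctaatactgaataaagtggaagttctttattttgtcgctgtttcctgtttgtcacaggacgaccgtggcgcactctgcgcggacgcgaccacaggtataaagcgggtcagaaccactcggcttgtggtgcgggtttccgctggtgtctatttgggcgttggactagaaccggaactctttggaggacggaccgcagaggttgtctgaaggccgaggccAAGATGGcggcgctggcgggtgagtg
Ndufs8: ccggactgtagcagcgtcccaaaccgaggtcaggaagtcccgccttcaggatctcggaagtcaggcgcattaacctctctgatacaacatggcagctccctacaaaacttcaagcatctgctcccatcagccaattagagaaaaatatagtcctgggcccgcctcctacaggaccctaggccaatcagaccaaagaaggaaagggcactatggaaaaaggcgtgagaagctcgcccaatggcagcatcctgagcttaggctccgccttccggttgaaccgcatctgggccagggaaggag

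The other elements were searched on both strands, and none of the searched words contains another. GCATGCGC, a core of the binding site of the factor NRF1, lay in promoters of 3 of the 33 members, or 9.09%. The share was 6.03% of tested genes and 3.05% of all genes with a promoter. CCGGAAGT, bound by ETS factors such as GABP, lay in 1 member, or 3.03%, against 8.79% of tested genes and 4.31% of all genes with a promoter. TCAAGGTCA, bound by estrogen-related receptors, lay in 0 of 33, against 0.368% and 0.466%. AACAAT, the core letters bound by Sox factors, lay in 4 members, or 12.1%, against 7.23% of tested genes and 12.2% of all genes with a promoter. In total, 11 of the 33 members held at least 1 of the NRF1, ETS, YY1 or estrogen-related receptor letters in a promoter. The share of all genes was not computed for this pooled count, so it has no background here. A match is a description of the letters in the window and not a measured binding site.

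The subunit genes were among the abundant transcripts of both genotypes. Their levels ran between 23.7 and 2579.9 FPKM in DKO, with a median of 559 FPKM, and between 24.1 and 2978 FPKM in Ctrl, with a median of 639.7 FPKM. At least 100 FPKM in both genotypes was reached by 35 of the 38.

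All 38 members had a lower level in DKO than in Ctrl, whereas after rescaling both genotypes to the median of the cardiomyocyte markers 19 members lay above 0 and 19 below. The median log2 ratio of DKO over Ctrl was -0.19, with a range of -0.33 to -0.02, beside a median of -0.0042 over all tested genes. Across all tested genes 51.0% lay below 0. Where a ratio is called the largest or the smallest, the absolute size of its log2 is meant. The members' summed level was 12.7% lower in DKO, and single members were 1.62 to 20.7% lower, with a median of 12.4%. The cardiomyocyte markers had a median log2 ratio of -0.19 as well, while that of fibroblast markers was 0.43 and that of macrophage markers 0.55. Rescaling to the cardiomyocyte markers subtracts their median from the log2 ratio of every gene and list named here, so it raises the median of all genes by as much. In bulk tissue, fewer cells of a type and less RNA per cell cannot be told apart, and the part of these marker shifts in the lower levels of the complex I genes was not tested.

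**Figure D1:**
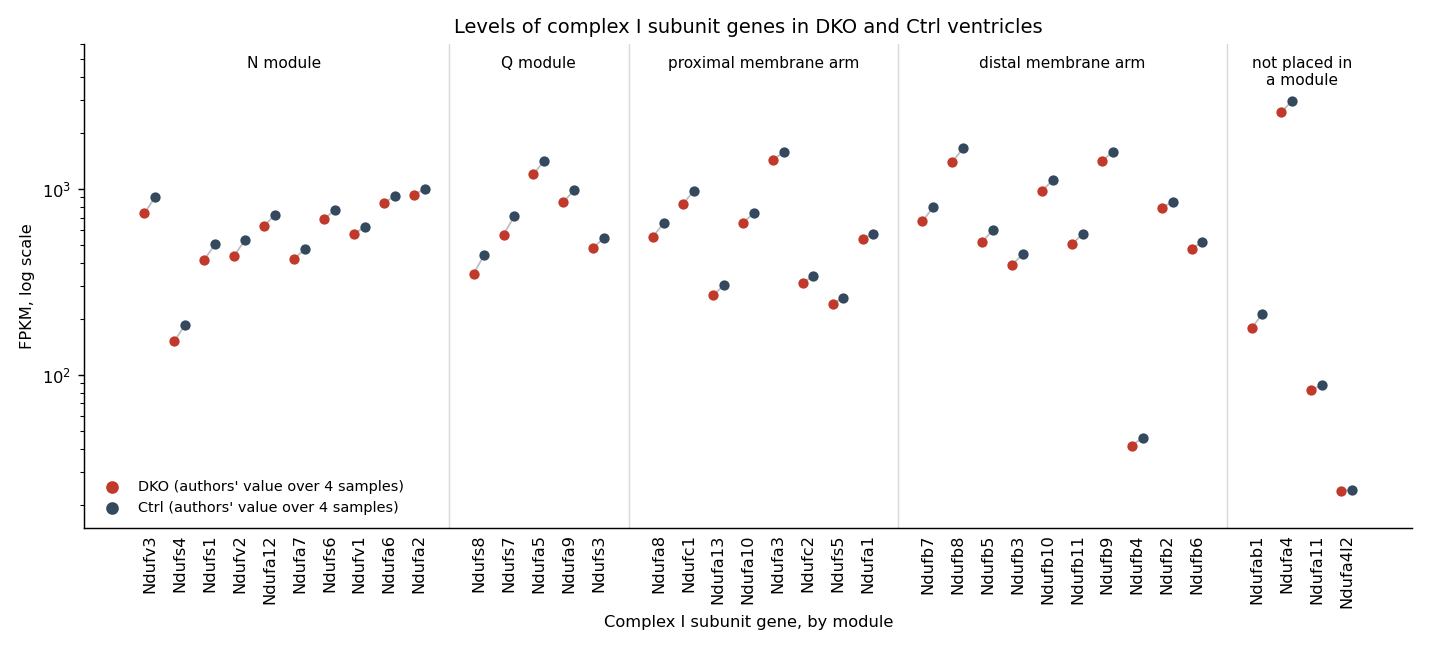
FPKM of 37 of the 38 complex I subunit genes in DKO and in Ctrl ventricles on a log axis, 1 point per genotype (pooled over 4 samples, with no error), grouped by module. The DKO point lies below the Ctrl point for all 37 genes shown on this scale, and for 18 of them after rescaling to the cardiomyocyte markers; Ndufa4 has the highest level, at 2579.9 FPKM in DKO and 2978 FPKM in Ctrl.

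Of the 38 members, 5 were called lower in DKO, or 13.2%, against 3.06% of all tested genes. No member was called higher by Cuffdiff, against 4.3% of all tested genes, and none was higher at an unadjusted p of at most 0.05. At that unadjusted threshold 20 members were lower, or 52.6%, against 7.76% of all tested genes. High levels went with more calls on the lower side. Of the 750 tested genes with at least 100 FPKM in both genotypes, 9.47% were called lower, as were 5 of the 35 members at that level, or 14.3%. Of those 750 genes 74.9% lay below 0, with a median log2 ratio of -0.10. Whether the members' share differs from that of other abundant genes was not tested.

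**Figure D2:**
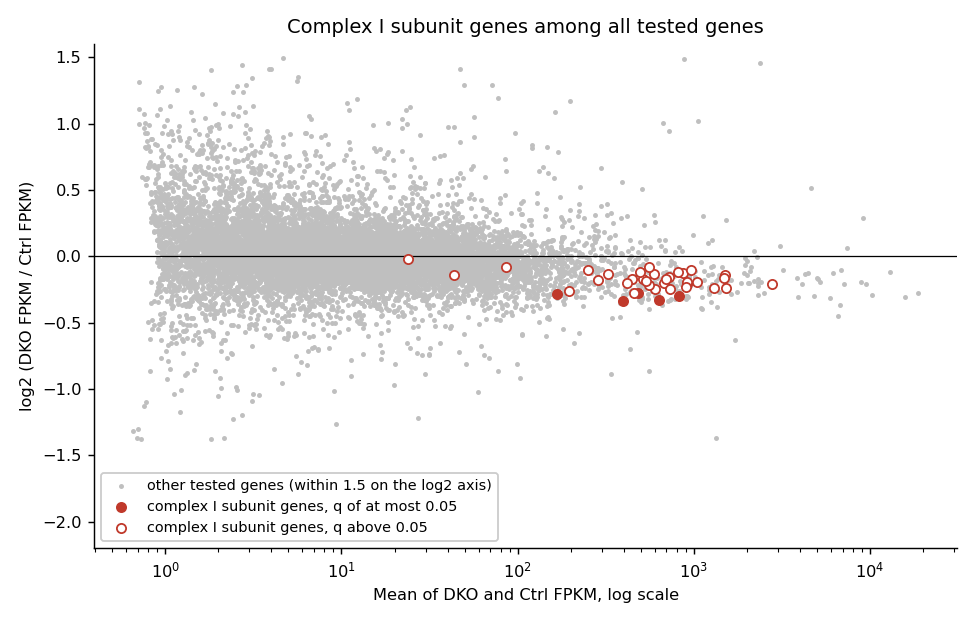
Log2 ratio of DKO over Ctrl FPKM against the mean FPKM of the 2 genotypes (log axis) for all tested genes within 1.5 on the log2 axis (grey) and the 38 complex I subunit genes (red, filled where q is at most 0.05). All 38 subunit genes lie below 0, which holds for 19 of them after rescaling to the cardiomyocyte markers, and 35 of them lie at 100 FPKM or more in both genotypes.

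The size of the differences was small. The smallest fold among the 371 genes called lower was 1.201, and 6 members reached that fold while 32 stayed below it. No called member reached a fold of 1.3, a rule that 1.71% of all tested genes met on the lower side. With a q of at most 0.01, 2 members were called lower, against 1.58% of all tested genes. With a q of at most 0.1 there were 8, against 4.11%. Requiring a fold of at least 1.2 beside a q of at most 0.05 gave 5 members and 3.06% of all tested genes.

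The N module accepts electrons from NADH, and 3 of its 10 measured members were called lower in DKO, against 3.06% of all tested genes. Ndufv3, an accessory subunit of this module at chr17:31657060-31668270 (mm9), stood at 736 FPKM in DKO against 907 FPKM in Ctrl. The log2 ratio was -0.30, at q = 0.0176 per the authors' deposited table. Ndufs4, an accessory subunit whose loss in mice causes a fatal encephalopathy, lies at chr13:115078003-115178302. It stood at 152 FPKM in DKO against 185 FPKM in Ctrl, or -0.29 as a log2 ratio (q = 0.0212, authors' deposited table). Ndufv2, a core subunit that holds an iron-sulfur cluster next to the flavin site, lies at chr17:66428135-66450831. It stood at 437 FPKM in DKO against 529 FPKM in Ctrl, or -0.27 as a log2 ratio (q = 0.0434, authors' deposited table). These 3 genes were 17.3 to 18.8% lower in DKO.

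Ndufs1, the core subunit that carries several iron-sulfur clusters of the N module, lay just outside the threshold. Its levels were 415 FPKM in DKO and 503 FPKM in Ctrl, or -0.28 as a log2 ratio (q = 0.0591, authors' deposited table). Ndufa2, an accessory subunit with a thioredoxin-like fold, had the highest level of the module and the smallest ratio. It stood at 925 FPKM in DKO and 995 FPKM in Ctrl, or -0.10 as a log2 ratio (q = 0.700, authors' deposited table). Ndufv1, which binds the flavin and NADH, and the accessory subunits Ndufa6, Ndufa7, Ndufa12 and Ndufs6 had log2 ratios between -0.20 and -0.12. Their q-values in the authors' deposited table ran between 0.328 and 0.645. Of the 3 core genes of the module, Ndufv2 was called, and Ndufs1 and Ndufv1 were not.

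The Q module passes electrons to ubiquinone, and 2 of its 6 members were called lower in DKO, against 3.06% of all tested genes. Both are core subunits that carry iron-sulfur clusters. Ndufs8, at chr19:3908870-3912754, stood at 349.9 FPKM in DKO against 441 FPKM in Ctrl, 20.7% lower, with a log2 ratio of -0.33 (q = 0.00517, authors' deposited table). Ndufs7, whose cluster hands electrons to ubiquinone, lies at chr10:79712197-79719537. It stood at 566 FPKM in DKO against 711 FPKM in Ctrl, 20.4% lower, with a log2 ratio of -0.33 (q = 0.00841, authors' deposited table). These were the members called at a q of at most 0.01.

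The accessory subunit Ndufa5 had the highest level of the Q module, with 1198 FPKM in DKO and 1412 FPKM in Ctrl (q = 0.120, authors' deposited table). Ndufs3, a core subunit with no cluster of its own, had the smallest ratio of the module. Its levels were 482 FPKM in DKO and 543 FPKM in Ctrl, or -0.17 as a log2 ratio (q = 0.509, authors' deposited table). The accessory subunit Ndufa9 stood at 849 FPKM in DKO and 982 FPKM in Ctrl, or -0.21 as a log2 ratio (q = 0.229, authors' deposited table).

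None of the 18 membrane arm members was called by Cuffdiff, against 3.06% of all tested genes called lower. At an unadjusted Cuffdiff p of at most 0.05, 9 of the 18 were lower, against 7.76% of all tested genes. In the proximal part, which joins the matrix arm, Ndufa8, a subunit that faces the intermembrane space, had the largest ratio. It stood at 553 FPKM in DKO and 655 FPKM in Ctrl, or -0.25 as a log2 ratio (q = 0.0689, authors' deposited table). The accessory subunit Ndufa3 had the highest level of the proximal part, with 1426 FPKM in DKO and 1574 FPKM in Ctrl and a log2 ratio of -0.14. Ndufa1, a small X-linked accessory subunit, had the smallest ratio, with 539.7 FPKM in DKO and 569.6 FPKM in Ctrl and a log2 ratio of -0.08. The other 5 proximal members had log2 ratios between -0.23 and -0.10.

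In the distal part, Ndufb7, another subunit on the intermembrane space side, stood at 669 FPKM in DKO and 795 FPKM in Ctrl. The log2 ratio was -0.25, at q = 0.0739 per the authors' deposited table, which placed it with Ndufs1 and Ndufa8 as the 3 members nearest above the threshold. Ndufb8, an accessory subunit, had the highest mean level of both genotypes there, with 1393 FPKM in DKO and 1647 FPKM in Ctrl and a log2 ratio of -0.24. In DKO alone the accessory subunit Ndufb9 was higher, with 1409 FPKM in DKO and 1577 FPKM in Ctrl. Ndufb6 had the smallest ratio, with 476 FPKM in DKO and 517 FPKM in Ctrl and a log2 ratio of -0.12. The other 7 distal members had log2 ratios between -0.22 and -0.12. Ndufb4, at 41.6 FPKM in DKO and 45.9 FPKM in Ctrl, is uncertain, since RefSeq lists the near-identical copies Ndufb4b and Ndufb4c, and how shared reads were assigned is not stated in the sources at hand.

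All 5 called members thus belonged to the matrix arm, which holds 16 of the members, and none to the membrane arm. At an unadjusted Cuffdiff p of at most 0.05, 9 of the 16 matrix arm members and 9 of the 18 membrane arm members were lower. The median log2 ratios of the arms lay close together, at -0.21 in the matrix arm and -0.18 in the membrane arm, and the difference between the arms was not tested. The 7 core subunits had a median log2 ratio of -0.27 with 3 called lower. The 27 accessory subunits placed in a module had a median of -0.18 with 2 called lower. Of all tested genes 3.06% were called lower. After rescaling to the cardiomyocyte markers the accessory median lay above 0 and the core median below it. The difference between core and accessory subunits was not tested. By module the medians were -0.19 in N, -0.22 in Q, -0.16 in the proximal and -0.19 in the distal membrane arm, while after rescaling to the cardiomyocyte markers the N, proximal and distal medians lay above 0. The members of a module share an assembled structure, but as genes they were measured in the same pooled libraries and are not replicates.

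**Figure D3:**
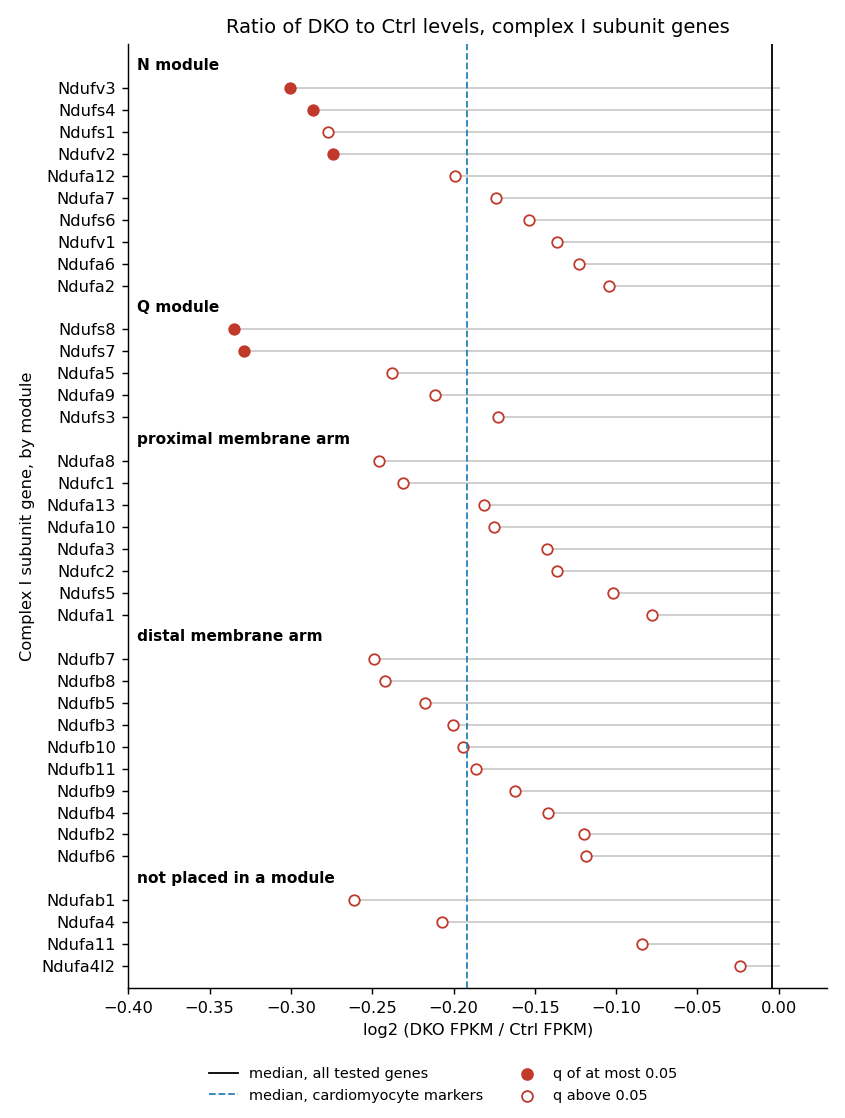
Log2 ratio of DKO over Ctrl FPKM for 37 of the 38 complex I subunit genes, by module, with filled points at a q of at most 0.05, the median of all tested genes (solid line) and the median of the cardiomyocyte markers (dashed line, -0.19). The 5 filled points lie in the N and Q modules, and 19 of the 37 genes shown lie to the right of the cardiomyocyte median, so their sign turns when the levels are rescaled to it.

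The remaining 4 members were placed in no module. Ndufab1, the mitochondrial acyl carrier protein that also serves fatty acid synthesis, stood at 177 FPKM in DKO and 213 FPKM in Ctrl (q = 0.104, authors' deposited table). Ndufa4, a protein since assigned to complex IV, had the highest level of all members, with 2579.9 FPKM in DKO and 2978 FPKM in Ctrl (q = 0.208, authors' deposited table). Ndufa11, an accessory membrane subunit, stood at 82.9 FPKM in DKO and 87.9 FPKM in Ctrl. Ndufa4l2, a paralog of Ndufa4 known to be induced by hypoxia, had the lowest level and the smallest absolute log2 ratio of all members. It stood at 23.7 FPKM in DKO and 24.1 FPKM in Ctrl, with a log2 ratio of -0.02.

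The tables of single transcripts gave fewer calls. Of 68 tested isoforms of the members 61 lay below 0, and 4 were called lower, against 1.12% of all tested isoforms. Of 46 transcription start site groups 44 lay below 0, and 4 were called lower, against 1.99%. Of 39 coding sequences 37 lay below 0, and 3 were called lower, against 1.66%. For several members the listed coding sequence covered only a minor transcript. That of Ndufa9 stood at 10.9 FPKM in DKO and 16.5 FPKM in Ctrl, beside 849 and 982 FPKM for the gene. Ndufv2 had the same FPKM in its isoform as in the gene, but its q among isoforms was 0.0828 in the authors' deposited table, where more features were tested.

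For Ndufv3 the tables separated a short transcript of 487 bases and a long one of 1579 bases. The short form stood at 720.5 FPKM in DKO against 891 FPKM in Ctrl (q = 0.0316, authors' deposited table). The long form stood at 15.7 FPKM in DKO and 15.5 FPKM in Ctrl and was not called. The short form made up 97.9% of the gene's level in DKO and 98.3% in Ctrl. The call for the gene thus rested on the short form.

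The transcripts of Ndufs3, Ndufb2 and Ndufs8 are described after their values were seen. Ndufs3 had 2 start site groups, of which one stood at 255 FPKM in DKO and 325 FPKM in Ctrl (q = 0.106, authors' deposited table). The other group of Ndufs3 stood at 227 FPKM in DKO and 218 FPKM in Ctrl. Ndufb2 had a start site group at 11.4 FPKM in DKO and 128 FPKM in Ctrl (q = 0.380, authors' deposited table), and another at 327 FPKM in DKO and 225 FPKM in Ctrl. A further group of Ndufb2, the one with the highest level, stood at 446 FPKM in DKO and 500 FPKM in Ctrl. It made up 56.8% of the gene's level in DKO and 58.6% in Ctrl. No start site group of Ndufb2 was called. For Ndufs8 the transcript of 757 bases carried the call, with 315 FPKM in DKO against 398 FPKM in Ctrl (q = 0.0266, authors' deposited table), while the coding sequence table listed the 963-base transcript at 34.5 FPKM in DKO and 43.7 FPKM in Ctrl with a q of 0.699.

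The listed loci of 5 members overlap a locus that names another gene, namely Ndufs1, Ndufa2, Ndufa4l2, Ndufa13 and Ndufb11. The kit named in the labels does not mark strand, so reads of overlapping genes cannot be told apart where they share bases. None of these 5 was called. The mitochondrially encoded subunits were not analysed here by name. A pair of unnamed loci on the mitochondrial chromosome, both listed at chrM:82-9384 (mm9) and chosen after their values were seen, were called lower in DKO. A transcript of 2654 bases stood at 127 FPKM in DKO against 165 FPKM in Ctrl (q = 0.0413, authors' deposited table). A transcript of 1951 bases stood at 109 FPKM in DKO against 154 FPKM in Ctrl (q = 0.0255, authors' deposited table). The files do not pair these loci with gene names.

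The lists of genes that build the complex, feed it or work beside it are given here by their counts, to be read against the 3.06% of all tested genes called lower. Of 19 tested assembly factors 1 was called lower, Ndufaf1, which acts on the membrane arm intermediate. It stood at 32.6 FPKM in DKO against 42.7 FPKM in Ctrl, or -0.39 as a log2 ratio (q = 0.00841, authors' deposited table). The assembly factors had a median log2 ratio of -0.20, close to that of the subunits. None of 15 iron-sulfur cluster assembly genes was called by Cuffdiff, and their median was -0.13. At an unadjusted Cuffdiff p of at most 0.05, 3 of the 15 were lower, against 7.76% of all tested genes. The most abundant of the 15 were Hspa9, a mitochondrial chaperone, at 448 FPKM in DKO and 521 FPKM in Ctrl, and Bola3 at 266 FPKM in DKO and 304 FPKM in Ctrl.

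Of 11 genes for other enzymes that reduce ubiquinone, 3 were called lower in DKO. Etfb, a subunit of the flavoprotein that collects electrons from fatty acid oxidation, stood at 958 FPKM in DKO against 1254 FPKM in Ctrl (q = 0.0029, authors' deposited table). Etfdh, which passes those electrons to ubiquinone, stood at 455 FPKM in DKO against 568 FPKM in Ctrl. Sdhb, the iron-sulfur subunit of complex II, stood at 1002 FPKM in DKO against 1237 FPKM in Ctrl. Of 13 ubiquinone synthesis genes 2 were called lower. They were Coq9 at 443 FPKM in DKO against 562 FPKM in Ctrl, and Coq5 at 101 FPKM in DKO against 125 FPKM in Ctrl.

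The malate-aspartate shuttle carries reducing equivalents of cytosolic NADH into mitochondria, and 3 of its 7 genes were called lower. Slc25a13 and Slc25a12, the aspartate-glutamate carriers, had log2 ratios of -0.35 and -0.31, and Got1, the cytosolic aspartate aminotransferase, had one of -0.30. In the other respiratory complexes, calls on the lower side numbered 1 of 4 genes of complex II, 2 of 9 of complex III, 2 of 15 of complex IV and 2 of 15 of complex V, against 5 of 38 for complex I. The medians were -0.26, -0.20, -0.20 and -0.21 in that order, against -0.19 for complex I, all of them before rescaling, and the differences between complexes were not tested. Uqcrc1, a core subunit of complex III, had a log2 ratio of -0.40, and Cox7a1, the heart and muscle form of a complex IV subunit, one of -0.45. The other calls were Uqcrc2 of complex III at -0.30, Cox6a2 of complex IV at -0.29, and Atp5g3 and Atp5d of complex V at -0.31 and -0.29, as log2 ratios. None of these related lists had a gene called higher.

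None of 11 genes for factors known to act on such promoters was called, against 3.06% of all tested genes called lower. At an unadjusted Cuffdiff p of at most 0.05, 3 were lower, against 7.76% of all tested genes, and 0 were higher. Esrra, an estrogen-related receptor, stood at 77.1 FPKM in DKO and 85.3 FPKM in Ctrl. Ppargc1a, a coactivator of mitochondrial genes, stood at 36.2 FPKM in DKO and 40.2 FPKM in Ctrl. Both had a log2 ratio of -0.15. Of the 11 genes 8 lay below 0, against 51.0% of all tested genes, with a median log2 ratio of -0.15. Yy1, Ppargc1b and Pprc1 lay above 0. Yy1 stood at 20.3 FPKM in DKO and 20.2 FPKM in Ctrl.

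Most markers of fibroblasts and macrophages differed between the genotypes, and the marker values of the ventricle's cell types stand beside the complex I result. None of the 13 cardiomyocyte markers was called by Cuffdiff, against 3.06% of all tested genes called lower. At an unadjusted Cuffdiff p of at most 0.05, 4 were lower, against 7.76% of all tested genes. Of the 13 markers 12 lay below 0. Their median log2 ratio was -0.19, the same to 2 decimals as that of the complex I genes. Of 9 fibroblast markers 7 were called higher in DKO, with a median of 0.43 and a summed level of 760.02 FPKM in DKO against 577 FPKM in Ctrl. Of 10 macrophage markers 8 were called higher, with a median of 0.55 and a summed level of 418 FPKM in DKO against 273 FPKM in Ctrl. The lowest single macrophage marker stood at 3.86 FPKM in DKO and the lowest in Ctrl at 2.58 FPKM. The 7 endothelial markers had a median of -0.07, with none called. The 6 smooth muscle and pericyte markers had a median of 0.19, with 1 called higher.

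**Figure D4:**
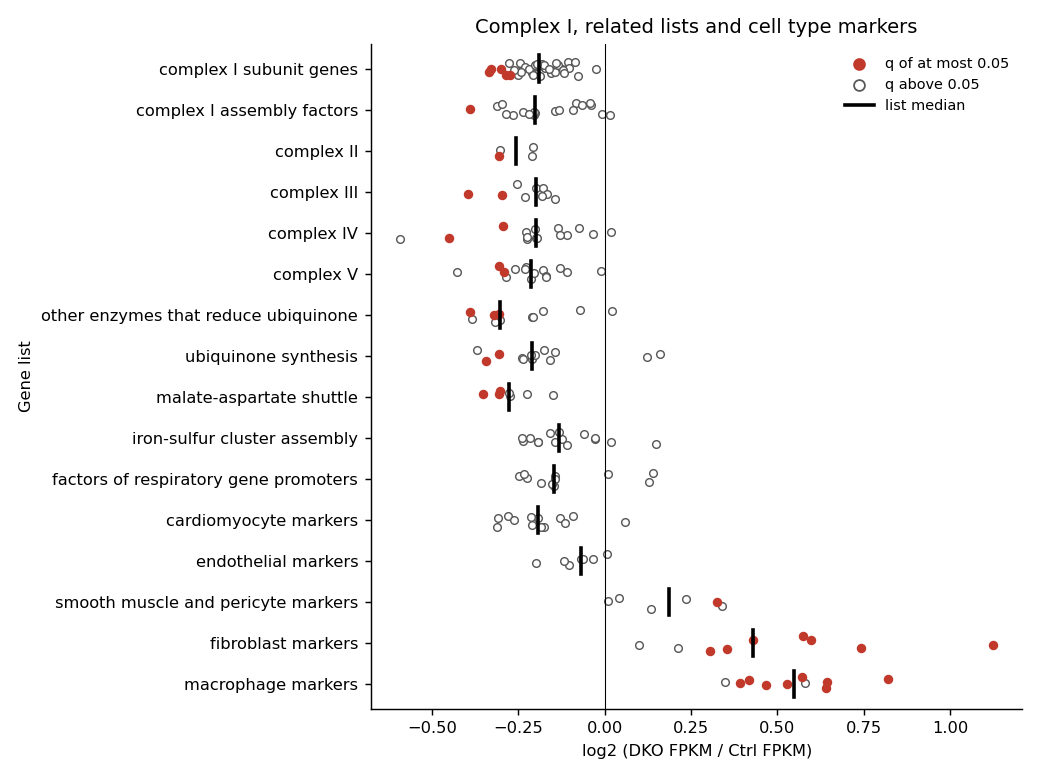
Log2 ratio of DKO over Ctrl FPKM for each tested gene (points, filled where q is at most 0.05) and the median (bar) of the complex I subunits, related mitochondrial gene lists and cell type markers. The median is -0.19 for the complex I subunits, which turns to above 0 after rescaling to the cardiomyocyte markers, -0.19 for the cardiomyocyte markers, 0.43 for the fibroblast markers and 0.55 for the macrophage markers.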

How the data were processed

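RNA from 4 DKO and 4 Ctrl ventricle samples was sequenced as single-end Illumina libraries, per the labels' protocols. TopHat2 2.0.9, Cufflinks 2.1.1 and Cuffdiff 2.1.1 were used with build mm9, per the submitters' processing notes. Which annotation and settings went with them is not stated in these sources. The deposited FPKM values are 1 per genotype, pooled over its libraries, per the file headers. Reads per library are not known from these tables, so no intervals or detection floors were computed. The same tables give the authors' p-values and their q-values, which a Benjamini-Hochberg adjustment over 12133 genes matched to 5.18e-07. The authors' deposited log2 column sets Ctrl over DKO, per the file headers, so log2 ratios were recomputed as DKO over Ctrl. Transcript lengths are in bases, as deposited by the authors. Starts in the files count from 0 and are written counting from 1.

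No test was run across samples, since the tables hold no value per sample. A gene was called at the authors' q of at most 0.05 with a tested status. The p-values cover the spread between libraries that Cuffdiff modelled. Gene lists are described by their counts and medians beside those of all tested genes. The members and lists were chosen with earlier results of these data known. Full values are given for called members, for the member with the highest mean level, the largest and the smallest ratio in each module, for unplaced members and for the 3 members with q nearest above 0.05. In related lists up to 3 called genes with the largest ratio are given, or the 2 most abundant where none was called. Module placement follows the known structure of the mammalian complex. Older symbols were matched through the synonyms of the RefSeq gene table, and promoter sequences are RefSeq's on GRCm38.p6, whose coordinates were not mixed with mm9. The counting steps were tested on simulated data. Python 3.11.15, pandas 2.3.3, numpy 2.4.6, SciPy 1.17.1 and matplotlib 3.10.9 were used. Alternatives changed the threshold, a fold minimum, filters on FPKM, a pseudocount, the scaling, the feature table and the membership. The comparison with genes at 100 FPKM or more, and the removal of members with overlapping loci, were chosen after seeing the data. The values of 1 member are not reported here by name, though it enters all counts and medians.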

Additional observations from a re-analysis of the deposited data

How the results depend on the processing

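The count of complex I genes called lower in DKO, 5, became 2 at a q of at most 0.01, 8 at a q of at most 0.1, 0 at a fold of at least 1.3 and 3 with coding sequences. It stayed within 1.5 times of 5 under the FPKM filters, the fold minimum of 1.2, isoforms, start site groups and the narrower memberships. The filters, at 1 and 10 FPKM, could not change it, since the lowest member level was 23.7 FPKM in DKO. Nor could the fold minimum of 1.2, since the smallest fold among all genes called lower was 1.201. The narrower memberships removed no called member. The count called higher was 0 under each setting run. The median log2 ratio reversed to 0.0012 after rescaling to the cardiomyocyte markers, as did those of the N module (0.0049), the proximal (0.033) and the distal membrane arm (0.0012), because that scaling subtracts the cardiomyocyte median. The Q module stayed below 0, at -0.03. The related lists together had 15 genes called lower, and 6 at a q of at most 0.01, with Sdhb of 2 lists counted once. Of all tested genes 3.06% and 1.58% were called lower at these thresholds. The list sizes stand beside the counts of each list above. Ndufv2 lost its call with isoforms (q = 0.0828), start site groups (q = 0.0584) and coding sequences (q = 0.0609), in the authors' deposited tables. Ndufs8 lost its call with coding sequences (q = 0.699, authors' deposited table). The coding sequences of several members, Ndufs8 among them, covered only a minor transcript of the gene. In all, 13 of 59 alternative values moved, weakened or reversed. The 59 include the settings that could not change the count. No paired analysis was possible because the tables hold 1 pooled value per genotype, and for the same reason no sample could be left out. Depth per library is unknown, which limits what can be said of the levels' precision.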
